A study of Bos taurus with 18 samples.

Results

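Insertions and deletions in the untranslated regions (UTRs) of expressed genes were read from the RNA of pituitary and hypothalamus of Angus cows (Bos taurus). The deposited list of insertion and deletion sites, called from these RNA reads, gives the annotation of each site, and the 8398 sites annotated as 3′ UTR (7501) or 5′ UTR (897) were taken, 7.49% of 112197 sites. Poly(A) RNA had been sequenced in 18 libraries, a pituitary and a hypothalamus library from each of 3 cows at each of 6, 18 and 30 months of age. The cows were recently weaned at 6 months, sexually mature at 18 months and past their first calving at 30 months and were not in heat, and the labels name no treatment or engineered allele. Pituitary is set against hypothalamus, and ages run from 6 to 30 months.

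An mRNA keeps a UTR on each side of the stretch that is translated. The 5′ UTR is the part that the ribosome scans before it reaches the start codon, and the 3′ UTR holds sites for microRNAs and RNA-binding proteins and the signal for cleavage and poly(A) addition. In coding sequence, an insertion or deletion shifts the reading frame unless its length is a multiple of 3, a limit that does not hold in UTRs. Runs of 1 repeated base and other short repeats are known for gaining or losing units when DNA is copied.

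The sites below show what such an allele looks like, and they were chosen among sites with 2 alleles and the same genotype in both tissues of all 9 animals. They are the 3 longest insertions and 3 longest deletions with the alternative allele on 3 to 15 of 18 chromosome copies, and 2 of the most deeply read sites with it on 6 to 12 copies. The first base, in lower case, is shared by both alleles, and the capitals mark the bases that the insertion adds or the deletion removes. Letters and positions are as the deposited list gives them, which names neither strand nor genome build. Chromosomes there have the names used by NCBI for the UMD cattle assembly, and its gene models carry numbers, not gene names.
Inserted in the 3′ UTR of gene16253, chromosome 13, position 68365377: tTTTGGTTA
Inserted in the 3′ UTR of gene489, chromosome 1, position 72014487: cAAGATTCT
Inserted in the 3′ UTR of gene25556, chromosome 22, position 47590406: cTCAACTTA
Inserted in the 5′ UTR of gene16202, chromosome 13, position 65840179: aTACAG
Deleted from the 5′ UTR of gene30268, chromosome 29, position 29317507: cGCAGCG
Deleted from the 5′ UTR of gene28941, chromosome 26, position 41926737: cGCTGCT
Deleted from the 3′ UTR of gene15031, chromosome 12, position 36606054: cCCTAAA
Deleted from the 3′ UTR of gene20927, chromosome 18, position 26383511: tTA
These are long alleles for this class of site, in which most alleles add or remove 1 base.

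The labels do not say which pituitary and which hypothalamus came from the same cow. Libraries were joined by their genotypes at single-nucleotide polymorphisms (SNPs) read at least 20 times. These were identical at 99.3% to 99.7% of sites in 9 pairs and at 50.1% to 66.7% in the other 72 pairings of a pituitary with a hypothalamus library. Gene count totals ran from 28724861 to 38036840 per library. A genotype was used where the library had at least 10 reads at the site, which left 4539 to 5275 UTR insertions and deletions in 17 libraries and 3558 in the pituitary of 18-month replicate 3. That library called 61 sites in 5′ UTRs, against 217 to 347 in the other 17 libraries. The libraries with the sample codes T04 to T09 also stood apart, in the reads they gave to the alternative allele, as described below. They are both libraries of 6-month replicate 3 and of 18-month replicate 1, the hypothalamus of 6-month replicate 2 and the pituitary of 18-month replicate 2. Because the gene models have no names, the tissues could not be checked against marker genes.

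Of the 8398 sites, 6873 had at least 10 reads in at least 1 library, and 2086 had them in all 18. Of the 3′ UTR sites 15.3% never reached 10 reads in any library, against 42.0% of the 5′ UTR sites. The sites lay in 4847 of 27376 gene models, of which 2909 held 1 site, 1065 held 2, 462 held 3 and 411 held 4 or more. The most were in gene25448, with 13 sites between positions 30803048 and 30806322 of chromosome 22, all in the 3′ UTR and 8 of them with more than 2 alleles, and in gene1308, with 12 between positions 5166441 and 5174684 of chromosome 2. Of the numbered chromosomes, 19 held the most sites (453) and 27 the fewest (103), and chromosome X held 232.

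Among the listed sites, insertions outnumbered deletions in 3′ UTRs but not in 5′ UTRs or coding sequence. Among the 8398 sites, 4103 were insertions, 3528 were deletions and 767 had alternative alleles of both kinds. Insertions made up 54.5% of 3′ UTR sites of a single kind (3694 against 3078 deletions), 47.6% of 5′ UTR sites (409 against 450) and 47.8% of coding sites (477 against 520). The share was 51.6% in introns and 51.6% over the whole list. In the calls of an animal, insertions were, at the median, 58.02% of non-reference 3′ UTR sites (lowest 55.9%, highest 59.4%), against 49.2% (43.2% to 53.5%) of 5′ UTR sites. The ranges did not overlap, and the share was higher in the 3′ UTR in 9 of 9 animals, by 8.88 percentage points on average (SD 3.62). The exact two-sided sign-flip permutation test over the 9 animals gave p = 0.00391, the smallest it can give, and 0.00508 after Benjamini-Hochberg adjustment over the 13 comparisons made within animals. Among the sites called in all 18 libraries, of which 36 lie in 5′ UTRs, the difference was 0.777 points (adjusted p = 0.578 by the same exact test). Animals share most of their sites, so these tests measure the spread between animals only.

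Against coding sequence the share of insertions did not differ beyond that spread. The 9 animals held 57.3% ± 0.846 insertions among UTR sites and 57.8% ± 2.10 among coding sites (mean ± SD), with 3 animals higher in UTRs and 6 lower (exact sign-flip permutation p = 0.414, adjusted p = 0.449). This comparison depended on the choice of sites. It was 0.972 points at a depth of 5 reads (adjusted p = 0.339, exact sign-flip permutation test). By the same exact test, UTR sites had the lower share at 20 reads (-2.29 points, adjusted p = 0.0369), over sites with 2 alleles (-2.04 points, adjusted p = 0.0169) and over sites called in all 18 libraries (-4.55 points, adjusted p = 0.0369).

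UTR alleles were short, and single-base changes were the largest class in both directions. Among the 6890 UTR sites with 2 alleles, the changed length was 1 base at 64.4%, with 2656 insertions and 1781 deletions, or 1.49 insertions per deletion. Single-base changes were as frequent in introns (65.1%) and over the whole list (64.3%). From 2 bases up, deletions in UTRs were as many or more at each length to 8 bases. There were 460 insertions and 683 deletions of 2 bases (0.673 insertions per deletion), 206 and 285 of 3 bases, and 162 and 270 of 4 bases (0.600). There were 20 insertions and 22 deletions of 7 bases, and 23 of each of 8 bases. Only 3 UTR sites with 2 alleles were longer than 8 bases: a 29-base insertion and a 36-base deletion in 3′ UTRs of chromosome 11 and an 18-base deletion in a 5′ UTR of chromosome 14. At 10 or more reads the 29-base insertion was called in 12 libraries, with 0 non-reference, and the other 2 sites were called in 0. At any depth, 1 library was non-reference at the 29-base insertion, 1 at the 36-base deletion and 2 at the 18-base deletion.

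**Figure D1:**
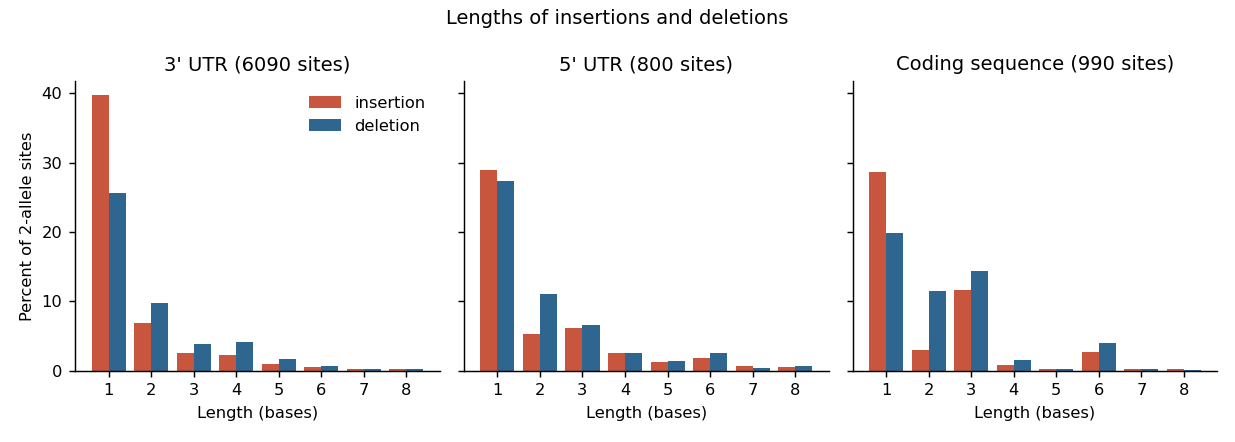
Percent of sites with 2 alleles (y axis) by length of the insertion or deletion in bases (x axis), for 3′ UTR, 5′ UTR and coding sites. Single-base insertions are the highest bar in both UTRs. In coding sequence the bars for 3 and 6 bases rise above their neighbours, and multiples of 3 make 33.2% of sites there, against 7.70% in 3′ UTRs.

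Frame-keeping lengths were rare in UTRs, as over the whole list, and common in coding sequence. Per animal, a median of 7.93% of non-reference UTR sites had a length that is a multiple of 3 (7.41% to 8.45%), against 50.8% of coding sites (48.1% to 53.6%). The difference was -43.1 points (SD 1.51, lower in UTRs in 9 of 9 animals), with an adjusted p of 0.00508 by the exact sign-flip permutation test. Over the listed sites, 7.70% of those in 3′ UTRs had a multiple of 3, against 17.25% in 5′ UTRs. For both UTRs together the share was 8.81%, near the 8.27% of introns and the 8.74% of the whole list, against 33.2% of coding sites. The 6-base deletions shown above, in 5′ and in 3′ UTRs alike, have a length that is a multiple of 3, and they were chosen as the longest. Single-base changes were 68.7% of the non-reference UTR sites of an animal at the median (66.1% to 69.3%), against 36.1% of coding sites (32.04% to 38.3%), higher by 32.6 points on average in 9 of 9 animals (adjusted p = 0.00508, exact sign-flip permutation test). An animal was called with 18.6 non-reference UTR insertions or deletions per 100 UTR SNPs at the median (17.7 to 19.5), against 1.13 coding ones per 100 coding SNPs (0.932 to 1.22). That difference, 17.6 per 100 on average, had the same sign in 9 of 9 animals and the same adjusted p. Over sites with 2 alleles only it was 12.6 per 100 (adjusted p = 0.00462, exact sign-flip permutation test). These counts include heterozygous calls without a read of the alternative allele, described below.

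The single bases gained in UTRs were mostly A or T. Of the single-base insertions 78.4% added A (1011) or T (1070), with 278 of C and 297 of G, and of the single-base deletions 65.1% removed A (570) or T (589), with 327 of C and 295 of G. In 5′ UTRs these shares were 56.9% for insertions and 40.6% for deletions. Coding sites had 78.2% and 44.7%. Among 2-base changes, TT was inserted most often (70 sites) and AG was deleted most often (82 sites). A pair of the same base made 36.3% of the 2-base insertions and 24.6% of the 2-base deletions.

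More than 2 alleles at a position were common in 3′ UTRs. The list gave more than 1 alternative allele at 1508 UTR sites (18.0%). The share was 18.8% of 3′ UTR and 10.8% of 5′ UTR sites, against 1.79% of coding and 3.49% of intron sites. These shares count listed sites at any depth, and depth differed between the classes. The depth for a call was never reached at 15.3% of 3′ UTR, 42.0% of 5′ UTR, 31.2% of coding and 83.8% of intron sites. The part of depth in these shares was not tested. Most of the 1508 had 2 alternatives (1228), 235 had 3, 41 had 4 and 4 had 5.

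Allele frequency was taken over the 18 chromosome copies of the 9 cows, each animal's genotype being the call shared by its tissues or the call of the only tissue with enough reads. All 9 animals had a genotype at 2557 UTR sites with 2 alleles, and 2539 of these had an alternative copy. The alternative allele was on 1 copy at 603 sites, 23.7% (exact 95% binomial interval 22.1% to 25.5%, counting error only). The median was 5 of 18 copies, and 164 sites (6.46%) had the alternative on all 18. UTR SNPs, counted the same way at 24166 sites with an alternative copy, had a median of 4 copies, 23.3% on 1 copy and 4.18% on all 18. The alternative was on all copies at 8.56% of insertions and 4.46% of deletions, with medians of 5 copies for insertions and 4 for deletions. Sites are not independent replicates, so these shares carry no test.

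The UTR spectrum had a peak that the SNP spectrum lacked, at exactly 9 of 18 copies. It held 231 sites (9.098%), between 85 sites at 8 copies and 84 at 10 copies, and 3.77% of UTR SNPs. Of the 231 sites, 154 were heterozygous in all 9 animals. Nearly all of those were single-base changes of A or T, with 102 of 563 insertions (18.1%) and 48 of 411 deletions (11.7%), against 2 of 519 changes of C or G and 2 of 1064 changes of 2 or more bases. Only 45 of 24186 UTR SNPs were heterozygous in all 9. The peak was not particular to UTRs. Coding insertions and deletions had 15 sites (8.15%) at 9 copies, between 4 at 8 copies and 5 at 10 copies. Of the coding sites with an alternative copy, 6 (3.26%) were heterozygous in all 9 animals. When a genotype was used only where each of its alleles had at least 1 read, 81 of 541 single-base A or T insertions (14.97%) were still heterozygous in all 9 animals.

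**Figure D2:**
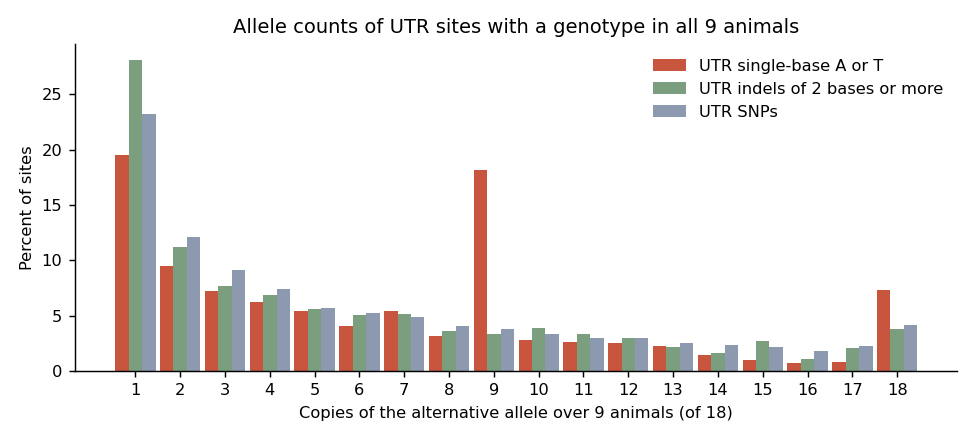
Percent of sites with an alternative copy (y axis) by copies of the alternative allele over 9 animals (x axis, 1 to 18), for UTR single-base A or T changes, UTR changes of 2 or more bases, and UTR SNPs. All 3 classes are most frequent at 1 copy, and the A or T changes have a further peak at 9 copies that the other classes lack.

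Heterozygosity showed the same split. Over sites with a genotype in all 9 animals, single-base A or T changes were heterozygous in 42.2% of genotypes, where their allele counts under random union of alleles give 32.4%. Single-base C or G changes had 30.6% against 28.5%, longer UTR changes 30.6% against 28.8% and UTR SNPs 31.6% against 29.7%. Per animal, 78.5% of non-reference UTR sites were heterozygous at the median (76.3% to 79.6%), against 58.5% of coding sites (53.8% to 63.4%), a difference of 19.5 points with no overlap and the same sign in 9 of 9 animals (adjusted p = 0.00508, exact sign-flip permutation test). Over sites with 2 alleles only, the difference was smaller, at 13.999 points (adjusted p = 0.00462, same exact test). These shares include heterozygous calls without a read of the alternative allele, described below. With a read required of each called allele, the difference was 19.93 points.

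The depth that the list records moved with the genotype. At 1977 UTR sites with 2 alleles, read at least 5 times in all 18 libraries, recorded depth in libraries called homozygous for the reference was lower than in heterozygous libraries by a median log2 ratio of -0.41, after scaling for library depth. It was more than 2-fold lower at 491 of these sites (24.8%) and more than 2-fold higher at 6. For UTR SNPs the median was -0.74 over 16312 sites. A median of 56.4% of the homozygous reference calls of a library, 82.8% of heterozygous calls and 61.5% of homozygous alternative calls reached 10 reads. The part of this in the allele counts was not tested beyond other depth limits, where the share on 1 copy was 25.3% at 5 reads and 24.7% at 20 reads.

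The single-copy alleles were spread unevenly over the animals. The cow of 6-month replicate 2 held 230 of the 603 single-copy UTR alleles (38.1%), and the other 8 held 19 to 73 each (3.15% to 12.1%). Its share of single-copy UTR SNPs was 39.95%. Over the 2557 sites, 299 had the alternative only in 6-month animals, 165 only in 18-month animals and 215 only in 30-month animals. The 299 include the 230 single-copy alleles of 6-month replicate 2. An alternative called in all 3 animals of an age and in no other animal was found at 1 site for 6 months, 2 for 18 months and 2 for 30 months. These counts by age were not set against UTR SNPs and are a description only.

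The sites shown above were chosen for equal genotypes in both tissues and for intermediate allele counts, so their values are a description. The 8-base insertion in gene16253 was heterozygous in 4 animals (6-month replicate 1, 18-month replicate 1, and 30-month replicates 2 and 3). These 8 libraries gave it 14.3% to 31.4% of allele reads (median 21.7%), and the other 10 libraries gave it 0 reads at depths of 36 to 142. The insertion in gene489 was on 13 of 18 copies, with 4 animals homozygous, and the insertion in gene25556 was on 3. The 5-base insertion in gene16202 was homozygous in 4 animals and heterozygous in 4, whose 8 libraries gave it 37.1% to 46.2% of reads. Its only homozygous reference animal, 30-month replicate 2, had 42 reads in pituitary and 56 in hypothalamus. The other hypothalamus libraries had 196 to 292, and the other pituitary libraries 214 to 288 apart from 26 in 18-month replicate 3. The 6-base deletion in gene30268 was on 12 copies and showed the same pattern. Its homozygous reference animal, 30-month replicate 3, had 26 reads in pituitary and 26 in hypothalamus, against 102 to 216 in the other 16 libraries. At the TA deletion in gene20927, on 10 copies, the 4 heterozygous libraries gave 47.2% to 57.2% of reads to the deletion.

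Other deeply read sites were single-base insertions called heterozygous in every animal. The insertion of A in gene11373 (3′ UTR, chromosome 9, position 42417027) was heterozygous in all 18 libraries at depths of 299 to 406, with 16.5% to 27.4% of allele reads carrying it. In gene7454 (3′ UTR, chromosome 6, position 25136629) an inserted A was heterozygous in all 18 libraries too, at 8.26% to 51.0%. Both libraries of 18-month replicate 2 were high there, with 52 reads of the insertion and 51 of the reference in pituitary and 129 and 124 in hypothalamus. An inserted T in the 5′ UTR of gene16202 (chromosome 13, position 65841965) was the same in kind, at 17.8% to 47.4%. The deletion of G in the 5′ UTR of gene12089 (chromosome 10, position 13238359) had animals of all 3 genotypes, with 7 heterozygous.

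Each animal offers a repeat measurement of the same genome in its other tissue. At UTR sites with at least 10 reads in both libraries and a non-reference call in at least 1, pituitary and hypothalamus of the same animal had the same genotype at 81.4% to 84.3% of sites (median 82.5%, 1912 to 3153 sites an animal). Pituitary and hypothalamus of different animals had the same genotype at 39.2% to 50.2% (median 43.1%, 72 pairings). Because libraries were joined into animals by SNP genotypes of the same data, this contrast follows from the pairing and is a description only. UTR SNPs of the same animal had 98.4% to 99.2%, the lowest in 6-month replicate 1. Against SNPs the UTR insertions and deletions were lower by 16.3 points on average (SD 0.918), in 9 of 9 animals and with no overlap (exact sign-flip permutation p = 0.00391, adjusted p = 0.00508). Over insertions and deletions with 2 alleles only, the difference was -10.5 points (adjusted p = 0.00462, same exact test).

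Agreement differed with the bases inserted or deleted. Single-base A or T insertions had the same genotype in both tissues at 77.3% ± 1.47 of sites (SD, n = 9 animals) and A or T deletions at 91.3% ± 1.52. Single-base C or G insertions had 97.2% ± 1.52 and C or G deletions 97.9% ± 1.25. Insertions of 2 or more bases had 96.9% ± 1.37, longer deletions 94.8% ± 1.31 and sites with more than 2 alleles 69.5% ± 1.83. The A or T insertions and the sites with more than 2 alleles lay below every other UTR class in every animal. Over all UTR sites of a single kind, insertions agreed at a median of 81.5% (80.8% to 84.0%), against 91.6% for deletions (89.4% to 92.9%), a difference of -9.58 points. Single-base sites agreed at 85.4% (83.9% to 87.2%), against 95.9% for longer ones (94.6% to 96.8%), a difference of -10.3 points. Neither pair of ranges overlapped, both differences had the same sign in 9 of 9 animals, and each adjusted p was 0.00508 by the exact sign-flip permutation test.

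**Figure D3:**
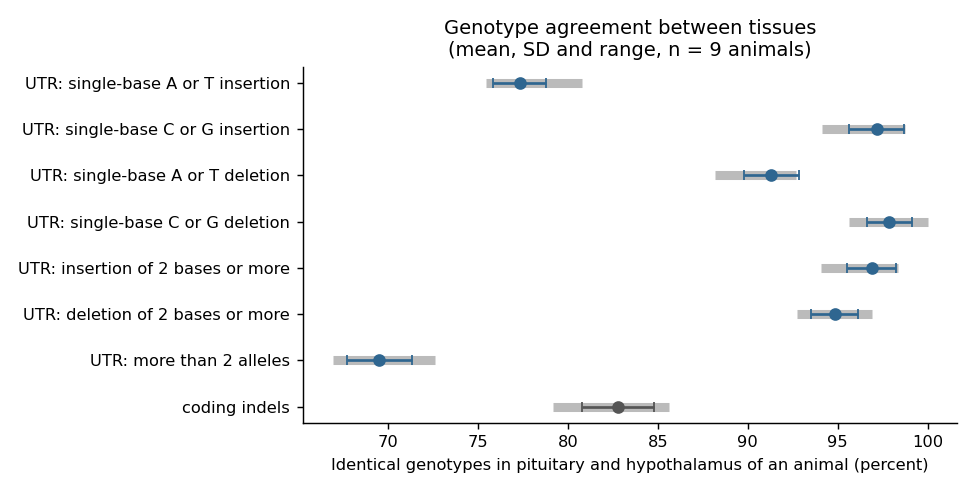
Percent of identical genotypes between pituitary and hypothalamus of an animal (x axis) for each class of site (y axis). Points are means, thin bars SDs and grey bars the range over 9 animals. Sites with more than 2 alleles (mean 69.5%) and single-base A or T insertions (mean 77.3%) lie apart from the other UTR classes, which have means from 91.3% to 97.9%.

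Agreement was higher at greater depth, in unequal steps for the classes. Over all UTR sites it was 69.99% ± 2.18 where the library with fewer reads had 10 to 14, 76.2% ± 1.55 at 15 to 19, 80.8% ± 1.48 at 20 to 29, 86.2% ± 1.77 at 30 to 49 and 92.1% ± 1.25 at 50 or more (SD, n = 9 animals). Single-base A or T changes had 67.1% at 10 to 14 reads and 92.7% at 50 or more. The other sites with 2 alleles had 91.7% and 98.7% in the same depth classes, and sites with more than 2 alleles had 52.7% and 82.8%.

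**Figure D4:**
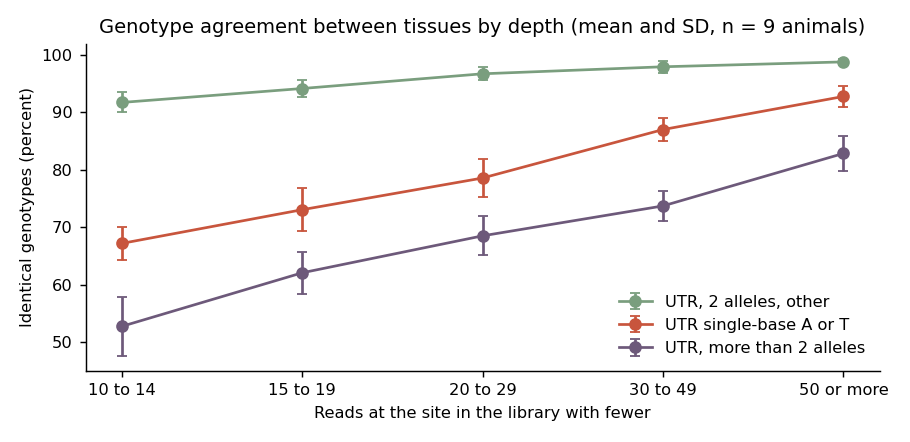
Percent of identical genotypes between the tissues of an animal (y axis) by the number of reads in the library with fewer (x axis), as mean and SD over 9 animals. All 3 classes of UTR site are higher at each deeper step, and A or T changes at 50 or more reads (92.7%) are near the other 2-allele sites at 10 to 14 reads (91.7%).

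When tissues differed, a call of reference in one stood beside a heterozygous call in the other. Of 17261 pairs of calls at sites with 2 alleles, 11038 were heterozygous in both tissues, 4247 were homozygous for the alternative in both and 1976 differed. Of those that differed, 1755 (88.8%) were reference and heterozygous, 221 were heterozygous and homozygous alternative, and 0 were opposite homozygotes. The pituitary had more alternative copies at 1061 and the hypothalamus at 915. Differences were spread over sites, here counted over UTR sites with any number of alleles and with calls of reference in both tissues included. Of 5656 sites compared in at least 1 animal, 3715 differed in no animal, 1941 in at least 1, and 139 in 5 or more animals. Among sites with 2 alleles, the 3 that differed most often were single-base A or T insertions in 3′ UTRs. They were in gene484 (chromosome 1, position 71835183, 8 of 9 animals), gene24674 (chromosome 21, position 32595606, 7 of 9) and gene20301 (chromosome 17, position 67335666, 7 of 9). At the gene484 site the 8 heterozygous libraries gave the insertion 0% to 25% of allele reads.

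Agreement at UTR and at coding insertions and deletions did not differ beyond the spread between animals. The UTR median was 82.5% (81.4% to 84.3%), against 83.2% for coding sites (79.2% to 85.6%), with a mean difference of -0.0543 points (4 animals higher in UTRs, exact sign-flip permutation p = 0.934, adjusted p = 0.934). Among sites with 2 alleles, UTR sites agreed more often, by 5.22 points (adjusted p = 0.00462, same exact test). Sites in 3′ UTRs had 82.6% ± 0.968 against 85.4% ± 3.57 in 5′ UTRs (SD, n = 9 animals), lower in 8 of 9 animals with a mean difference of -2.85 points, which missed the threshold (exact sign-flip permutation p = 0.0586, adjusted p = 0.0692). Without 18-month replicate 3, whose pituitary library called few 5′ UTR sites, the difference was -3.98 points (adjusted p = 0.00923, same exact test), and at a depth of 5 reads it was 0.145 points (adjusted p = 0.836).

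At heterozygous UTR sites the inserted or deleted allele had fewer reads than the reference allele. Per animal the mean share of alternative reads was 31.2% at the median (30.3% to 37.3%), against 47.4% at UTR SNPs (47.3% to 47.5%). The difference averaged -14.4 points in 9 of 9 animals (adjusted p = 0.00508, exact sign-flip permutation test). Insertions had 29.2% (27.5% to 33.8%), against 39.0% for deletions (37.96% to 44.1%), a difference of -10.0 points with the same adjusted p and sign count. Among sites with 2 alleles the gap was widest at single-base A or T changes, with library medians of 24.4% for insertions and 39.0% for deletions. The medians were 40.2% and 42.6% at single-base C or G changes, and 38.8% and 39.1% at changes of 2 bases or more. With a read required of each called allele, the difference between all insertions and deletions was -8.74 points.

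This share separated the libraries by sample code. The 6 libraries T04 to T09 gave 36.5% to 37.8% of reads to the alternative allele at heterozygous UTR sites, and the other 12 gave 30.7% to 32.9%. At sites with more than 2 alleles the ranges were 36.1% to 37.95% in T04 to T09 and 26.4% to 28.2% in the others. Single-base A or T insertions had 29.8% to 31.1% against 22.9% to 27.4%, and A or T deletions 44.2% to 47.1% against 37.2% to 42.0%. For the other UTR classes, coding sites and UTR SNPs (47.4% to 47.6% against 47.3% to 47.6%) the ranges overlapped. The split runs across tissues and ages, with 3 libraries of each tissue and none at 30 months among T04 to T09.

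The same split appeared in 2 animals at the same sites, a description only, since T04 to T09 were set apart by read shares of these libraries. At 497 sites with more than 2 alleles and the same heterozygous genotype in both tissues of 6-month replicate 2, the pituitary (T03) gave 27.5% of reads to the alternative and the hypothalamus (T04) 37.5%. In 18-month replicate 2 the pituitary (T09) gave 37.7% and the hypothalamus (T10) 27.9% over 465 sites. In the other 7 animals, whose libraries are both inside or both outside T04 to T09, the tissues differed by -1.33 to 0.975 points.

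Heterozygous calls without a read of the alternative allele moved with it. They made up 0.0473% to 0.470% of heterozygous UTR calls in T04 to T09 and 8.98% to 14.04% in the other 12 libraries. At single-base A or T insertions the ranges were 0.169% to 0.742% and 10.6% to 21.5%, and at sites with more than 2 alleles 0% to 0.545% and 16.5% to 20.8%. The split was not particular to UTRs, since coding insertions and deletions had 0% in every library of T04 to T09 and 3.67% to 15.8% in the others. At UTR SNPs the ranges were 0% to 0.0117% and 0.0437% to 0.168%. With these calls left out, the gap between the library sets narrowed. It was then 36.6% to 37.9% in T04 to T09 against 35.2% to 36.4% at all UTR sites, and 36.2% to 37.95% against 32.5% to 34.3% at sites with more than 2 alleles, and A or T deletions stayed apart at 44.6% to 47.1% against 41.6% to 44.2%. Single-base A or T insertions then overlapped (29.9% to 31.2% against 27.9% to 30.6%). With this rule the tissues of an animal agreed at 84.6% ± 1.48 of UTR sites (SD, n = 9 animals).

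**Figure D5:**
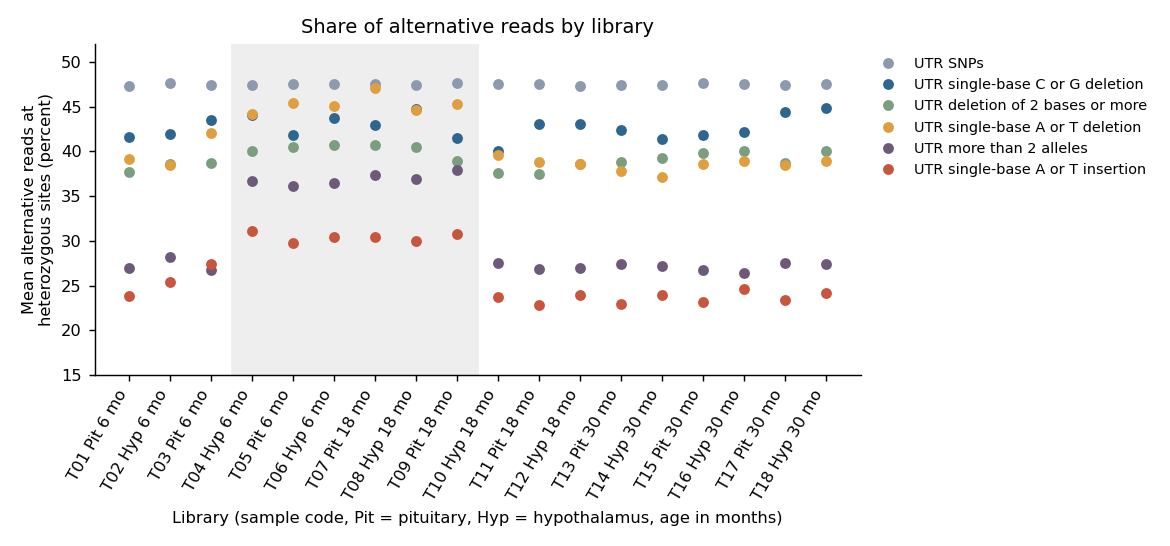
Mean percent of reads with the alternative allele at heterozygous sites (y axis, from 15 to 52) in each library (x axis, in the order of the sample codes), by class of site. Within the shaded libraries, T04 to T09, sites with more than 2 alleles lie at 36.1% to 37.95%, against 26.4% to 28.2% outside. The points for UTR SNPs stay near 47.4% in every library.

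Between tissues, none of the 4 measures of UTR insertions and deletions differed beyond the spread between libraries. Pituitary libraries had 2194 to 3196 non-reference sites (median 3009), against 2662 to 3329 (median 2969) in hypothalamus libraries, and the ranges overlapped. The share heterozygous was 79.8% ± 1.11 in pituitary and 79.9% ± 0.991 in hypothalamus, the share of insertions 58.9% ± 0.825 and 58.4% ± 0.910, and the share of alternative reads 33.3% ± 3.11 and 33.3% ± 2.88 (SD, n = 9 libraries each). The exact two-sided permutation test over all splits of 18 libraries gave p from 0.272 to 0.933 and an adjusted p of 0.933 for each. Without 18-month replicate 3 the difference in non-reference sites was 4.25 instead of -73.3 sites. The spread of the read share includes the split by sample code. In the 5 animals with no library among T04 to T09, the read share was lower in pituitary in 5 of 5, a mean difference of -0.652 points instead of -0.0707 (p = 0.0317, adjusted p = 0.0952, exact permutation test of libraries without pairing). The share of insertions was higher in pituitary in the same 5 of 5, by 1.13 points instead of 0.469 (exact permutation p = 0.0476, adjusted p = 0.0952).

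Between ages, none of 4 measures passed after adjustment. Animals at 6, 18 and 30 months were called with 3001 ± 194, 2975 ± 69.5 and 2874 ± 67.2 non-reference UTR sites (SD, n = 3 each, exact permutation p = 0.443). The share of insertions was 57.5% ± 0.556, 57.98% ± 0.453 and 56.5% ± 0.753 (exact permutation p = 0.0393, adjusted p = 0.157 over 4 measures), and all 18-month animals (57.7% to 58.5%) lay above all 30-month animals (55.6% to 57.0%). Heterozygous shares were 78.6%, 78.9% and 77.1% (exact permutation p = 0.129), and tissue agreement was 82.6%, 83.1% and 82.5% (exact permutation p = 0.686). A pair of ages with 3 animals each cannot give an exact p below 0.1. Animals with a library among T04 to T09 number 2 of 3 at 6 months, 2 of 3 at 18 months and 0 of 3 at 30 months, and the part of this in the age values was not tested.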

How the data were processed

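Among the tools, GATK, HISAT2, StringTie and DESeq are listed per the submitters' processing notes, and role, version, build and variant filters are not given in the sources used here. Per the file headers, the deposited variant tables give for each of 18 libraries a called genotype, the depth as a count of reads and the counts of reads per allele; the authors also deposited raw counts per gene model, used here for library totals only. Sites were typed by the Effect column. Effects counted as UTR SNPs leave out 358 sites listed as gained start codons. Insertion or deletion and length come from the alleles, and sites with alleles of both kinds were kept apart. Calls needed 10 reads.

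Libraries were joined to animals by SNP genotypes. Differences within animals were tested with exact two-sided sign-flip permutations, tissues with exact permutations of libraries, ages with exact permutations of animals, each family adjusted by Benjamini-Hochberg with a threshold of 0.05. The computation used Python 3.11.15, NumPy 2.4.6 and SciPy 1.17.1, and the tests were checked on simulated data. The 9 cows are the replicates, and each gave both libraries. Named sites had 2 alleles, at most 30 bases, and the same genotype in both tissues of all 9 animals. They were the 3 longest insertions and 3 longest deletions on 3 to 15 copies, the 3 deepest 3′ UTR and 3 deepest 5′ UTR sites on 6 to 12 copies and, without the condition of equal genotypes, the 3 that differed most often between tissues. Members, classes and tests were chosen with earlier results of these data known. Alternatives were depths of 5 and 20 reads, 2-allele sites, sites called in all 18 libraries, numbered chromosomes, each animal left out, animal as a block and single ages. Keeping only animals without libraries T04 to T09, and requiring a read of each called allele, were added after seeing the data.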

Additional observations from a re-analysis of the deposited data

Results flagged for a closer look

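In 25 sets of 9 libraries or animals, the lowest and the highest value were set against the rest, which by chance marks about 1 in 20 sets, and 2 were marked. The pituitary of 18-month replicate 3 had 2194 non-reference UTR insertions and deletions, against 2813 to 3196 in the other 8 pituitary libraries. This library also had 3558 UTR sites with 10 or more reads, the fewest of all 18. In the animal of 18-month replicate 3, tissue agreement was higher in 3′ than in 5′ UTRs by 6.15 points, while in the other 8 animals the difference was -6.99 to -1.77 points.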

How the results depend on the processing

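Of 357 values recomputed with a test, 318 kept their side of the threshold and, outside the comparisons of 3 ages, their direction. The differences between UTR and coding sites in single-base share, multiples of 3, heterozygosity and number per 100 SNPs, and those between insertions and deletions, single-base and longer sites, and UTR sites and SNPs, did so wherever 8 or 9 animals entered. In the 5 animals without libraries T04 to T09 the exact sign-flip permutation test of differences within animals cannot go below p = 0.0625 (adjusted p = 0.08125), so none of those can pass. The values there were 8.39 points for insertions in 3′ against 5′ UTRs, 33.0 for single bases, -43.4 for multiples of 3, 19.2 for heterozygosity, 17.7 per 100 SNPs, -10.2, -10.5 and -16.4 for agreement of insertions against deletions, single-base against longer sites and UTR sites against SNPs, and -10.1 and -16.6 for the read shares of insertions against deletions and UTR sites against SNPs.

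Comparisons near 0 turned or passed with the choice of sites, and the cause was not tested. The insertion share of UTR against coding sites was 0.972 points at 5 reads, and passed at 20 reads (-2.29), with 2 alleles (-2.04) and in all 18 libraries (-4.55). In all 18 libraries the 3′ against 5′ insertion share no longer passed (0.777). Agreement of UTR against coding sites was 1.76 at 5 reads, 5.22 with 2 alleles, 0.246 with a read of each allele, 0.0815 in the 5 animals and -0.483 to 0.366 with each animal left out. Agreement of 3′ against 5′ UTRs was 0.145 at 5 reads, and passed at 20 reads (-2.77), in all 18 libraries (-6.71), on numbered chromosomes (-3.12) and without 18-month replicate 3 (-3.98), with a range of -3.98 to -2.33 over animals left out.

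Pituitary minus hypothalamus gave 9.67 non-reference sites and 0.134 points of heterozygosity in all 18 libraries. Within 6, 18 and 30 months it was 82, -375 and 73.3 sites, 0.185, 0.0604 and -0.533 points of heterozygosity, 0.103, 0.661 and 0.643 points of insertion share, and -1.98, 2.21 and -0.439 points of read share, with no test. In the 5 animals the tissue differences were -0.652 points of read share and 1.13 of insertion share (adjusted p = 0.0952 each, exact permutation test of libraries without pairing). With each animal left out the ranges were -107.6 to 4.25 sites, -0.200 to 0.0280 points of heterozygosity and -0.928 to 0.4932 points of read share, with 4.25 sites and 0.0234 points without 18-month replicate 3. With animal as a block the tissue values were the same (-73.3 sites, -0.0959, 0.469 and -0.0707 points) with adjusted p of 0.823 to 0.934 by exact sign-flip permutation, and no call changed. Depth limits the 5′ UTR values most, with 36 sites called in all 18 libraries.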
